A study of Homo sapiens with 6 samples.

Results

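The genes described here build the kinetochore and run the spindle assembly checkpoint, with ZW10 at their head. ZW10 was chosen because its signal differed between the arrays of this experiment, and the other genes were added by function, with results of the same arrays already known. Of 47 listed symbols, 46 had a probe set among the 39261 probe sets with a gene symbol, 1 probe set per gene. The remaining symbol, CASC5, is an older name of KNL1, which was measured. RNA came from MIA-PaCa2, an established human cell line of pancreatic ductal adenocarcinoma (PDAC), and was hybridised to Clariom D arrays, on which each gene is read by a set of oligonucleotide probes. Cells lipotransfected with AllStars Negative Control siRNA (NC, 3 arrays) were compared with cells lipotransfected with the FlexiTube siRNA siH19-2 (3 arrays), which targets the long noncoding RNA H19. Both groups received the same lipid reagent and the same amount of siRNA, given as 20 µg in the sample descriptions and as 50 nM in the methods, and RNA was taken 24 h later. The experiment therefore rests on 1 cell line, 1 siRNA against H19 and 1 time. The arrays were run in triplicate, and the methods speak in general of independent experiments behind the quantitative data. Neither the labels nor the array methods state whether the 3 arrays of a group came from separate cultures, so that p-values may measure only technical spread.

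Kinetochores are protein assemblies on the centromere that bind spindle microtubules during mitosis. While a chromosome is unattached, the checkpoint proteins gathered at its kinetochore hold back the anaphase-promoting complex, and once all chromosomes are attached this brake is released. ZW10, ZWILCH and KNTC1 (also called ROD) form the RZZ complex of the outermost layer, which recruits MAD1-MAD2 and, through the adaptor SPDL1, the motor dynein. ZW10 also works outside mitosis, as a subunit of the NRZ tether that captures Golgi-derived vesicles at the endoplasmic reticulum.

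H19 itself was measured first as a check of the labels. Its log2 signal was 7.36, 7.43 and 7.42 on the NC arrays and 7.10, 7.09 and 7.12 on the siH19-2 arrays. The groups did not overlap, and the siH19-2 signal was 81.3% of NC (log2 difference -0.30, SE 0.04, limma adjusted p = 0.012). With any 1 array left out the difference lay between -0.32 and -0.28, and it passed the test without NC 1 or siH19-2 3 but not without NC 2, NC 3, siH19-2 1 or siH19-2 2 (adjusted p from 0.053 to 0.067). Arrays of 1 group correlated at 0.993 to 0.995 over all probe sets, and arrays of different groups at 0.991 to 0.993. Of 9 markers of PDAC lines, VIM, a mesenchymal filament, had an NC mean of 13.1, and the epithelial keratins KRT7 (6.99), KRT8 (9.74), KRT18 (9.43) and KRT19 (9.24) also lay above the median of all probe sets (6.16), whereas the epithelial adhesion genes EPCAM (4.52) and CDH1 (5.49) lay below it. Of 20 markers of other cell types none passed the test, and their NC means ranged from 4.26 to 8.76, with a median of 6.04. The highest were CD68 (8.76), INS (7.96) and COL1A1 (7.28), all above KRT7. Signals of the lists thus overlapped, and they do not by themselves tell the cell types apart.

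ZW10 had the largest difference of the genes described here. Its log2 signal was 8.01, 7.82 and 7.96 on the NC arrays and 8.89, 8.79 and 8.97 on the siH19-2 arrays. Every siH19-2 array lay above every NC array. The mean went from 7.93 ± 0.10 (SD, n = 3) to 8.88 ± 0.09 (SD, n = 3), a difference of 0.95 on the log2 scale, which is 1.94-fold. Since this difference led to the choice of the gene, it is given as a description with no test or interval. ZW10 ranked 6 among the increases over all probe sets, and with any 1 array left out its difference stayed between 0.90 and 1.00. On chromosome 11, the nearest measured genes in RefSeq order were TMPRSS5 (0.01) and the pseudogene MTRF1LP1 (-0.07) on one side. LOC100288385 (-0.17) and CLDN25 (-0.02) lay on the other, and none of these 4 passed the test. In this order their NC means were 6.04, 6.49, 4.96 and 5.84, near or below the median of all probe sets (6.16). The siH19-2 arrays of CLDN25 had an SD of 0.51. At such signals and spread a change could be missed, so the surroundings of ZW10 are not shown to be unchanged.

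**Figure D1:**
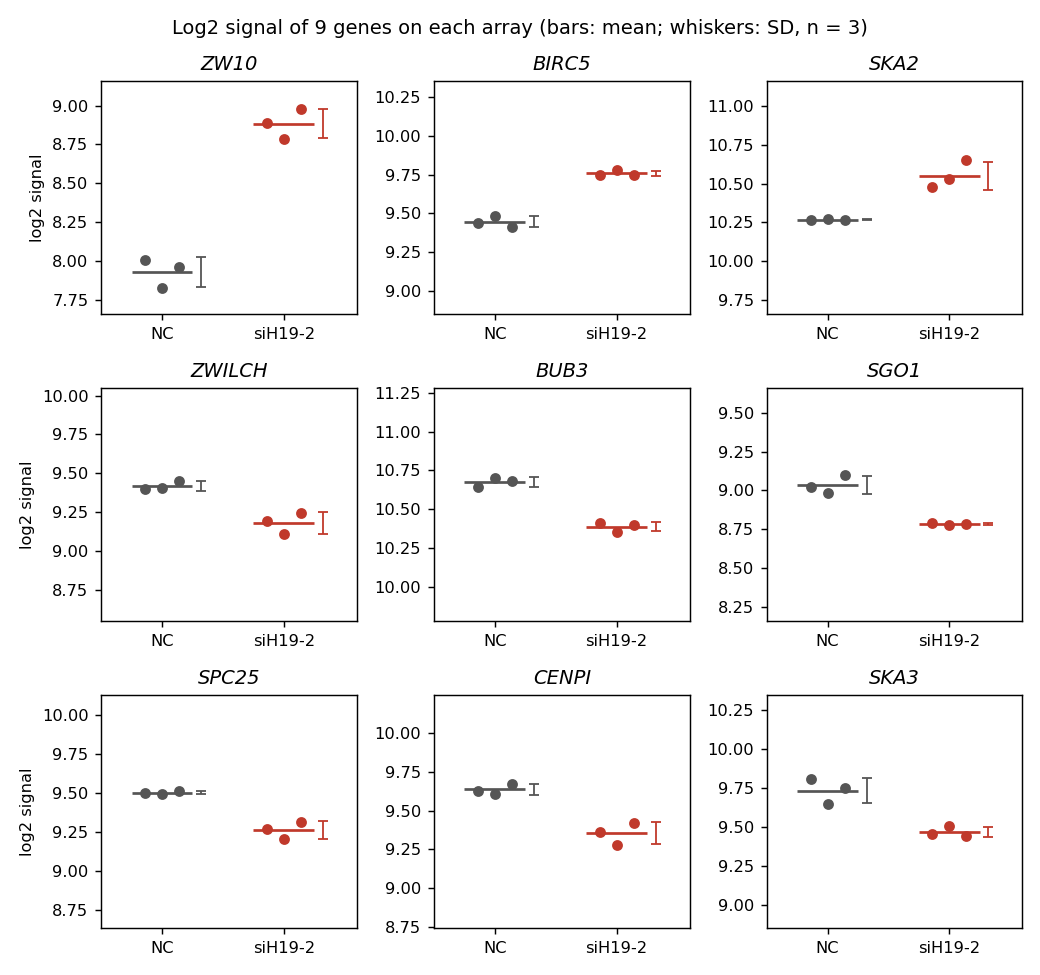
Log2 signal of ZW10 and of the 8 genes with an adjusted p under 0.05 among the other 45 on each of the 3 NC (grey) and 3 siH19-2 (red) arrays. Points are arrays, horizontal bars group means and whiskers SD (n = 3). All panels span the same height on the log2 axis. The groups do not overlap in any panel, and ZW10 (difference 0.95) moved furthest.

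Of the other 45 genes, 8 passed an adjusted p of 0.05 over all probe sets, 6 of them lower and 2 higher with siH19-2. Lower were ZWILCH, BUB3, SGO1, SPC25, CENPI and SKA3, and higher were BIRC5 and SKA2. Each of these differences was under 0.32 in size on the log2 scale, and ZW10 was the only gene of the 46 beyond 0.5. The 8 genes were 17.8% of the 45, against 5.26% of all probe sets (2.63% lower and 2.64% higher). The kinetochore genes all had signals above the median of all probe sets, where more probe sets passed. Within their range of mean signals, 6.66 to 11.3, 11.9% of 15455 probe sets passed (5.69% lower and 6.21% higher). This share is closer to a like baseline than 5.26% but is not matched in signal. The median NC mean was 9.15 for the 45 genes and 7.98 for the probe sets in the range. Whether the 45 genes passed more often than probe sets of like signal was therefore not tested. NC and siH19-2 arrays did not overlap for 27 of the 45 genes (60%), against 28.3% of all probe sets and 44.5% of those within the range. The same limit applies to this comparison. The median difference over all 46 genes was -0.02, beside 0.02 over all probe sets, with 26 genes below 0 and 20 above.

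**Figure D2:**
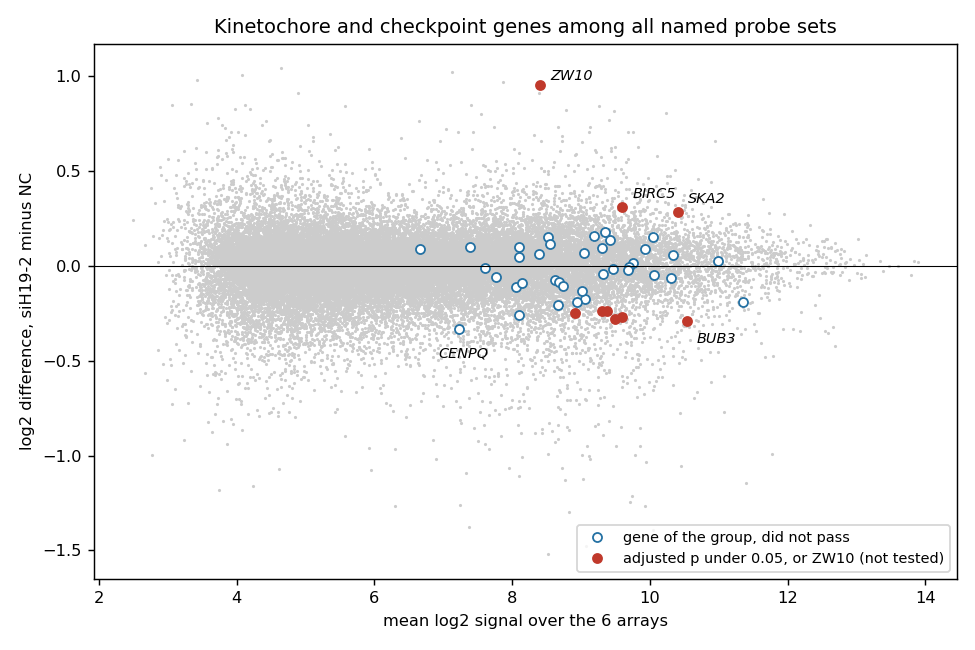
Log2 difference (siH19-2 minus NC) against mean log2 signal over the 6 arrays for all named probe sets (grey), with the 46 kinetochore and checkpoint genes marked. Filled red points are ZW10 and the 8 genes with an adjusted p under 0.05, open blue points the other 37. The genes sit in the brighter range, from 6.66 to 11.3, and only ZW10 lies beyond 0.5.

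With 1 array left out, the number of the 45 genes passing fell from 8 to 0 (without NC 1, NC 3 or siH19-2 1), 1 (without NC 2 or siH19-2 2, in each case BIRC5) or 4 (without siH19-2 3, BUB3, BIRC5, SPC25 and CENPI), while all probe sets passing fell from 2067 to between 464 and 1078. The 8 differences kept their direction in every such fit, the lower genes between -0.31 and -0.20 and the higher ones between 0.23 and 0.33. When the variance prior followed the signal with robust estimation, 18 of the 45 passed (40%), against 8.78% of all probe sets. The share within the signal range of the kinetochore genes was not computed for this setting, so the 8.78% is no like baseline. When only probe sets above the median signal were fitted, 18 passed (40%), against 20.7% of those fitted. The share within the range was not computed for this setting either, so the 20.7% is no like baseline.

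Within the RZZ complex, ZWILCH fell, whereas ZW10 was higher. ZWILCH signals were 9.40, 9.41 and 9.45 with NC and 9.19, 9.11 and 9.24 with siH19-2, so that it fell by 0.24 (SE 0.05, limma adjusted p = 0.046). With any 1 array left out ZWILCH did not pass (limma adjusted p from 0.060 to 0.15). KNTC1, the large scaffold of the complex, read 9.13, 9.13 and 9.19 with NC and 8.92, 8.92 and 9.08 with siH19-2, without overlap, but its difference of -0.18 did not pass (adjusted p = 0.15). The ZW10 difference exceeded that of ZWILCH by 1.19 (SE 0.06) and that of KNTC1 by 1.13 (SE 0.06). The differences of ZWILCH and KNTC1 were 0.06 (SE 0.03) apart. These and the following comparisons of partner subunits were picked after the values had been seen and are descriptions. Those with ZW10 also rest on the difference that led to its choice. ZWINT, which links RZZ to KNL1, had a difference of 0.14 (adjusted p = 0.084), and SPDL1 one of 0.07 (adjusted p = 0.42). Promoter sequences of ZW10 and ZWILCH, from 250 bases before to 30 after the RefSeq start (GRCh38.p14, gene strand, 5′ to 3′), are shown because these 2 subunits of 1 complex moved apart. Capitals mark the cell-cycle homology region (CHR, TTTGAA or TTCGAA on either strand) and the CCAAT box (CCAAT, or ATTGG on the other strand), elements known from promoters of mitotic genes.
ZW10 promoter, chr11:113773663-113773942, minus strand: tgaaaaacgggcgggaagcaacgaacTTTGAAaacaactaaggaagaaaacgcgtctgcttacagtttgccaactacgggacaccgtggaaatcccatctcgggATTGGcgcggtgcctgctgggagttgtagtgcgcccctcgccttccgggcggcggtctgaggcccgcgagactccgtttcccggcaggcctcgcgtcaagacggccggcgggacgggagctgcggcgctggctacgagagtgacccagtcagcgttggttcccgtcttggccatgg
ZWILCH promoter, chr15:66505076-66505355, plus strand: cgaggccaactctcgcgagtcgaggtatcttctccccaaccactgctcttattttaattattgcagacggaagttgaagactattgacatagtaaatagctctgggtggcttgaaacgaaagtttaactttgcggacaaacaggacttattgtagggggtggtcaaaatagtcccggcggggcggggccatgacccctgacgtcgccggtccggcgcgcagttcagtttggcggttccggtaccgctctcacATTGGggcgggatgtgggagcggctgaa
The ZW10 sequence held a CHR at -224 to -219 and a CCAAT box at -146 to -142, counted from the start as +1. The ZWILCH sequence held a CCAAT box at 3 to 7 and no CHR.

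Among the checkpoint proteins, BUB3 fell and the kinases did not pass the test. BUB3, which carries BUB1 and BUBR1 to the kinetochore, read 10.64, 10.70 and 10.68 with NC and 10.41, 10.36 and 10.40 with siH19-2, a decrease to 81.9% of NC (difference -0.29, SE 0.04, limma adjusted p = 0.013). Its pseudogene BUB3P1, with a similar sequence, also fell (-0.41, adjusted p = 0.022), and whether the probes of one read transcripts of the other was not tested. The same was not tested for the pseudogenes MAD2L1P1 (-0.23, adjusted p = 0.12), CENPIP1 (-0.21, adjusted p = 0.32) and CENPCP1 (0.21, adjusted p = 0.17). Their differences had the sign of those of MAD2L1, CENPI and CENPC and did not pass. The partners of BUB3 stayed near NC, with a difference of 0.03 for the kinase BUB1 and 0.01 for BUB1B, the gene of BUBR1. The change of BUB3 lay 0.32 (SE 0.03) below that of BUB1 and 0.30 (SE 0.03) below that of BUB1B. MAD1L1 (0.15, adjusted p = 0.054) and its partner MAD2L1 (-0.19, adjusted p = 0.082), the pair that RZZ brings to kinetochores, had differences of opposite sign that did not pass. PLK1, a mitotic kinase, read 11.43, 11.47 and 11.42 with NC and 11.29, 11.27 and 11.19 with siH19-2, without overlap (-0.19, adjusted p = 0.067). TTK, the kinase that starts checkpoint signalling, had a difference of -0.01 (adjusted p = 0.96).

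In the chromosomal passenger complex, which corrects faulty attachments through the kinase Aurora B, BIRC5 was the only one of the 4 subunits that passed. BIRC5, or survivin, the subunit that places the complex on centromeres, read 9.44, 9.49 and 9.42 with NC and 9.75, 9.78 and 9.75 with siH19-2, 1.24-fold higher (difference 0.31, SE 0.04, limma adjusted p = 0.010). The spread within either group was at most 0.04 (SD). CDCA8 (borealin), which binds survivin directly, read 10.10, 10.07 and 10.06 with NC and 10.06, 10.08 and 9.95 with siH19-2, with overlap (-0.05, adjusted p = 0.63). The BIRC5 difference exceeded that of CDCA8 by 0.36 (SE 0.04). AURKB, the kinase itself, and INCENP, its scaffold, each had a difference of 0.09 and did not pass. The shugoshins, which protect centromeric cohesion, were close to each other. SGO1 read 9.02, 8.98 and 9.10 with NC and 8.79, 8.78 and 8.78 with siH19-2 and fell by 0.25 (SE 0.04, adjusted p = 0.029). SGO2 had a difference of -0.26 that narrowly missed the threshold (adjusted p = 0.051), and the 2 differences were 0.01 (SE 0.03) apart. The antisense RNA SGO1-AS1 had a difference of -0.20 (adjusted p = 0.13).

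**Figure D3:**
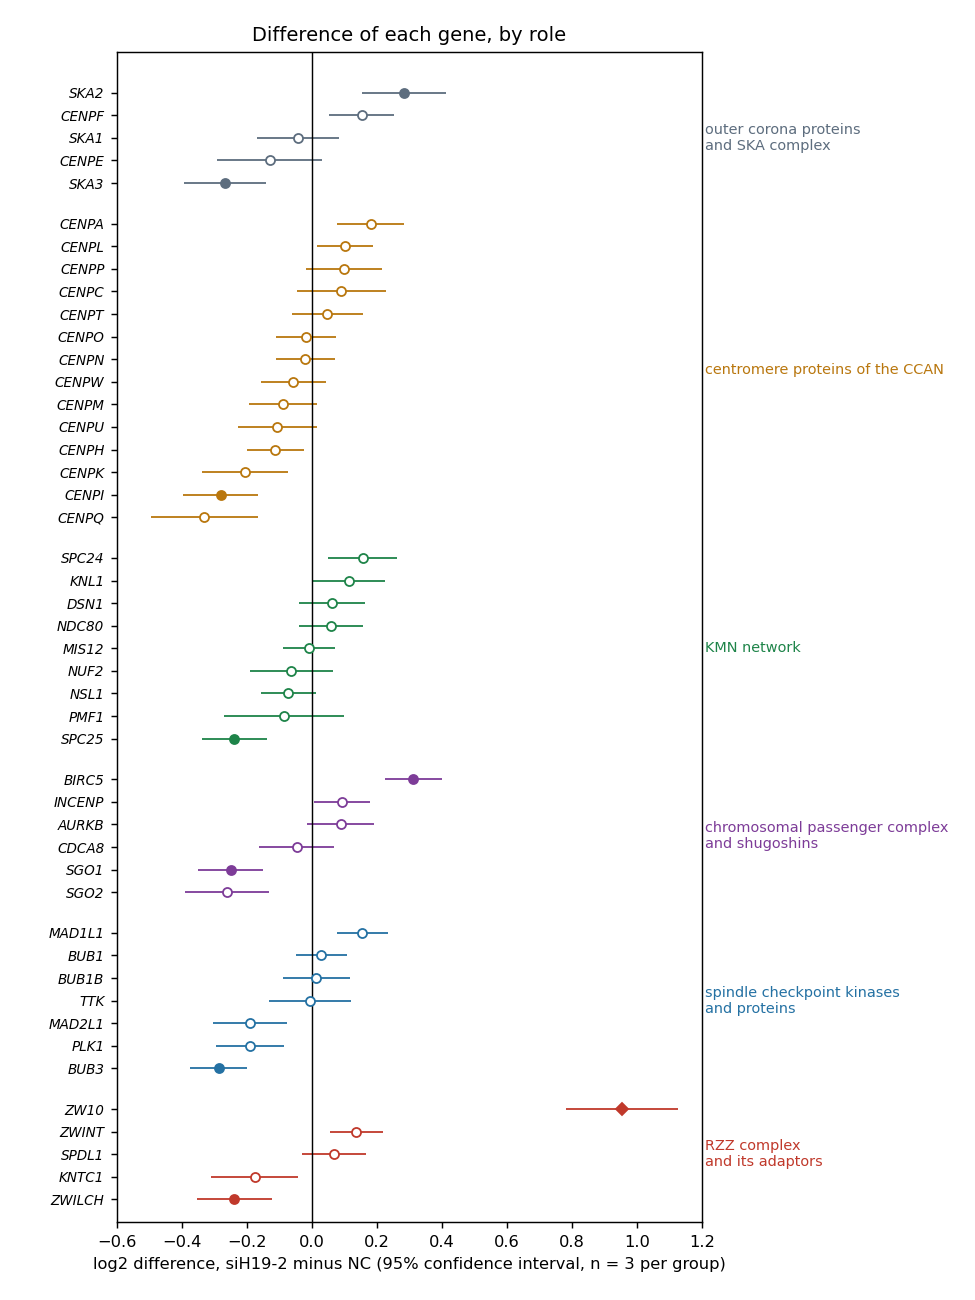
Log2 difference (siH19-2 minus NC, x axis) with its 95% confidence interval for each of the 46 genes, grouped by role (n = 3 per group). Filled circles passed an adjusted p of 0.05, open circles did not, and the diamond is ZW10, which was not tested. The interval drawn for ZW10 takes no account of its choice by this same difference. Genes that passed lie on both sides of 0 among the passenger and shugoshin genes (BIRC5 and SGO1) and the SKA genes (SKA2 and SKA3).

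The KMN network, the microtubule-binding core of the outer kinetochore, held 9 measured genes, of which 1 passed. SPC25, a subunit of the NDC80 complex that anchors it to the inner kinetochore, read 9.50, 9.49 and 9.51 with NC and 9.27, 9.20 and 9.32 with siH19-2 and fell by 0.24 (SE 0.04, limma adjusted p = 0.034). SPC24, with which it forms a dimer, had a difference of 0.16 (adjusted p = 0.12), and the 2 differences were 0.40 (SE 0.07) apart. NUF2 read 10.34, 10.30 and 10.37 with NC and 10.26, 10.19 and 10.36 with siH19-2, with overlap (-0.06, adjusted p = 0.55), and NDC80 had a difference of 0.06 (adjusted p = 0.48). Genes of the MIS12 complex ranged from -0.09 (PMF1) to 0.06 (DSN1), and KNL1, the docking platform of BUB proteins, had a difference of 0.11 (adjusted p = 0.23). The SPC25 promoter is shown for its 2 copies of the CHR and 2 of the CCAAT box, in capitals.
SPC25 promoter, chr2:168890401-168890680, minus strand: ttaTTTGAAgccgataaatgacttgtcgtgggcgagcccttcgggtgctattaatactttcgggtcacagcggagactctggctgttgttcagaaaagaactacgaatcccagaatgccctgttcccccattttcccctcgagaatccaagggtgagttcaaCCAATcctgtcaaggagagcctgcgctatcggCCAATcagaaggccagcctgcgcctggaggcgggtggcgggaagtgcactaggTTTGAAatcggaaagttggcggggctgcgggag
The copies of the CHR lay at -247 to -242 and at -3 to 3, and the CCAAT boxes at -88 to -84 and -56 to -52.

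The constitutive centromere-associated network (CCAN), counted here with CENPA, the histone H3 variant that marks centromeres, joins chromatin to the KMN network. Of its 14 genes 1 passed. CENPI read 9.63, 9.61 and 9.67 with NC and 9.37, 9.28 and 9.42 with siH19-2, 82.3% of NC (difference -0.28, SE 0.05, limma adjusted p = 0.031). CENPI forms a subcomplex with CENPH, CENPK and CENPM, and these 3 had differences of -0.11, -0.21 and -0.09 that did not pass (adjusted p from 0.098 to 0.32). CENPQ had the lowest difference of all 46 genes, -0.33, and just missed the threshold (adjusted p = 0.051). Its NC arrays read 7.48, 7.36 and 7.33 and its siH19-2 arrays 7.15, 6.96 and 7.07, without overlap. CENPA had a difference of 0.18 in the other direction (adjusted p = 0.077). CENPN, a reader of CENPA nucleosomes, read 9.73, 9.68 and 9.69 with NC and 9.69, 9.64 and 9.71 with siH19-2, with overlap (-0.02, adjusted p = 0.81). The other 7 genes of the network lay between -0.11 and 0.10.

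The SKA complex, which keeps kinetochores on shortening microtubules, had subunits that passed in both directions in the main fit. SKA2 read 10.26, 10.27 and 10.27 with NC and 10.47, 10.53 and 10.65 with siH19-2 and rose 1.22-fold (difference 0.28, SE 0.05, limma adjusted p = 0.040). Its NC arrays were nearly identical, and siH19-2 3 was the highest. SKA3 read 9.80, 9.65 and 9.75 with NC and 9.45, 9.51 and 9.44 with siH19-2 and fell to 83.1% (difference -0.27, SE 0.05, adjusted p = 0.044). Neither SKA2 nor SKA3 passed in limma with any 1 array left out (adjusted p from 0.051 to 0.15). By the methods' t-test with Benjamini-Hochberg adjustment they did not pass either (adjusted p = 0.072 and 0.075). SKA1 had a difference of -0.04 (limma adjusted p = 0.70). The SKA2 difference exceeded that of SKA3 by 0.55 (SE 0.08) and that of SKA1 by 0.33 (SE 0.09). Near SKA2 on chromosome 17, PRR11 had a difference of -0.13 (adjusted p = 0.11) and TRIM37, a ubiquitin ligase, fell by 0.42 (SE 0.04, adjusted p = 0.0075). The corona proteins CENPF (0.15, adjusted p = 0.10) and CENPE, a plus-end motor (-0.13, adjusted p = 0.34), did not pass. The promoters of the SKA subunits that passed in opposite directions are given for comparison, with the CHR (TTCAAA on the other strand) and CCAAT boxes in capitals.
SKA2 promoter, chr17:59155157-59155436, minus strand: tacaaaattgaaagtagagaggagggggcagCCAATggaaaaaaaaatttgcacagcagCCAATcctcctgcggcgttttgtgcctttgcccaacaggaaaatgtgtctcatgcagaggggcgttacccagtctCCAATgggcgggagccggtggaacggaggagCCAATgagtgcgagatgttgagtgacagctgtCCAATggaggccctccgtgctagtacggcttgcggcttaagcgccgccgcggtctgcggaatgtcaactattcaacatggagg
SKA3 promoter, chr13:21176523-21176802, minus strand: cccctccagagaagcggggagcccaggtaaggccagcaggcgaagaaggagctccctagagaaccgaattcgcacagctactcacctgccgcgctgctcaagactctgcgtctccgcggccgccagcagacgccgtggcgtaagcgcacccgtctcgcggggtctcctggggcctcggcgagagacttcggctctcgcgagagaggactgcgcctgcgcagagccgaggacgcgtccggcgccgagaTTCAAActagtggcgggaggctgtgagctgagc
The SKA2 sequence held 5 CCAAT boxes, at -219, -191, -116, -85 and -53, and no CHR, and the SKA3 sequence held 1 CHR at -3 to 3 and no CCAAT box.

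The same window was available for 38 of the 46 genes. A CHR was present in 18 of them (47.4%, against 18.7% of 27305 promoters), a CCAAT box in 26 (68.4%, against 38.7%) and both in 14 (36.8%, against 8.43%). An E2F site (TTTCCCGC, TTTGGCGC, TTTCGCGC or TTTGCCGC) was present in 3 (7.89%, against 3.82%). Both strands were searched, and matches of different motifs shared bases in 1 of the 38 genes. Among the 7 promoters of ZW10 and the genes that passed, 4 held a CHR and 5 a CCAAT box, and among the other 31 these numbers were 14 and 21. A match describes letters in the window and no binding was measured.

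**Figure D4:**
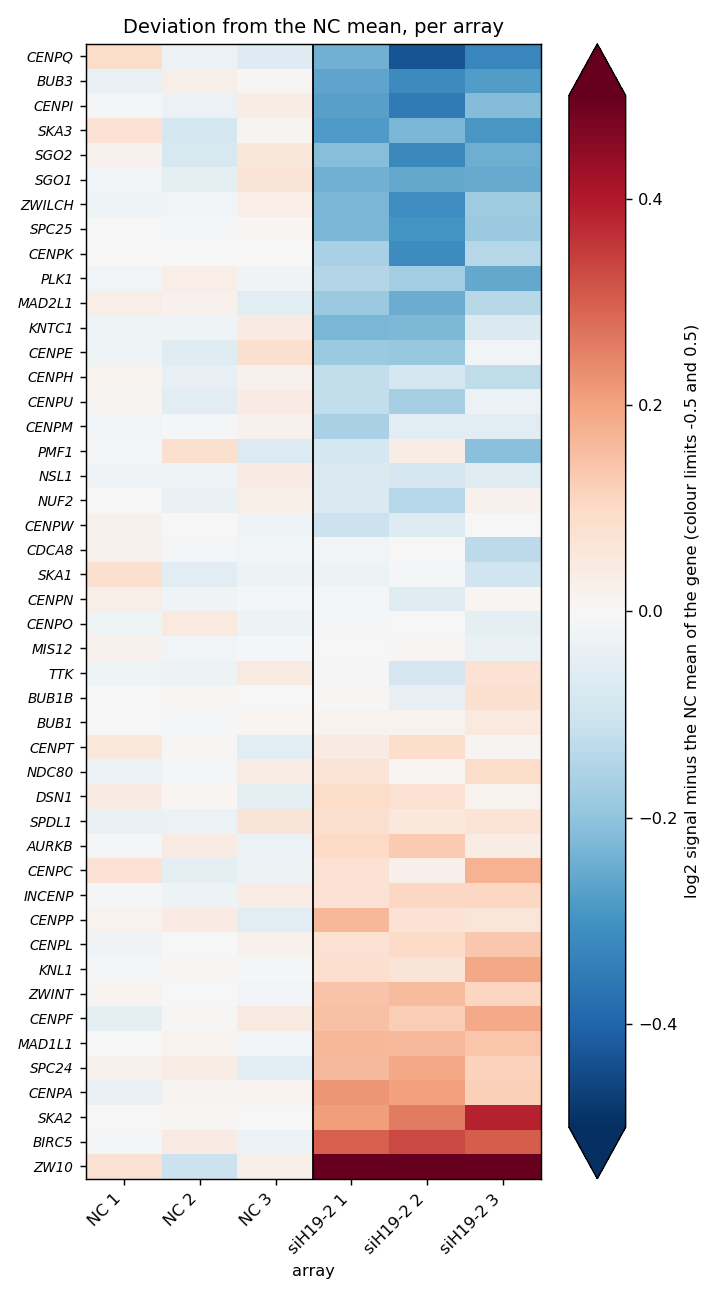
Log2 signal of each of the 46 genes on each array (columns) minus the NC mean of that gene, ordered from the lowest to the highest difference. Colours are limited at -0.5 and 0.5, so ZW10 (0.95) is at the limit. The 3 siH19-2 arrays carry the same sign for the genes at either end, and siH19-2 2 is the lowest array for 5 of the 6 genes that passed below NC.

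Over all 46 genes the arrays were level, with a median deviation from the NC means between -0.01 and 0.01 on each of the 6 arrays. The 6 genes that fell had median deviations of -0.25, -0.31 and -0.24 on siH19-2 1, 2 and 3. The array siH19-2 2 was lowest for 5 of these 6 genes.

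Neighbouring pathways were counted in the same fit. The shares that passed were 12.5%, 17.6%, 13.6%, 8.33% and 11.1% for the lists in the order below. They stand beside 5.26% of all probe sets and 11.9% of those within the signal range of the kinetochore genes. Most thus lay near the share within that range, which was not matched to the signals of each list. No list was tested as a set. Of the 8 genes of Golgi-to-ER tethering that work with ZW10 outside mitosis, SCFD2, a protein of the Sec1 family, rose by 0.25 (adjusted p = 0.047), the other 7 did not pass, and their median over all 8 was 0.05. Of 17 dynein and dynactin genes, 2 rose and 1 fell, with a median of 0.09. The dynactin subunit DCTN5 rose by 0.32 (adjusted p = 0.018) and the dynein chain DYNC1LI2 by 0.25 (adjusted p = 0.042), and the light chain DYNLT1 fell by 0.22 (adjusted p = 0.046). Of 22 further centromere and kinetochore genes 3 rose and none fell, with a median of -0.0019. These were CLIP1, a microtubule plus-end protein (0.44, adjusted p = 0.010), CENPBD1 (0.26, adjusted p = 0.040) and CLASP1, another plus-end protein (0.21, adjusted p = 0.049). Of 12 further checkpoint and anaphase genes, PPP2R5A, a regulatory subunit of the phosphatase PP2A, rose (0.23, adjusted p = 0.033). Since many kinetochore genes, though not all, are made mainly in G2 and mitosis, markers of these phases were set beside them. Of 18 such markers, KIF20A rose (0.21, adjusted p = 0.025) and NUSAP1 fell (-0.23, adjusted p = 0.022), with a median of -0.01. The part of cell cycle phase in the differences of single kinetochore genes was not tested.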

How the data were processed

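The authors hybridised RNA to Clariom D arrays and deposited log2 signals, normalised between arrays (the sorted values are nearly the same on every array, as quantile normalisation gives), a step that removes any overall shift. Sources used here do not give background correction, summarisation or genome build. The authors' group means equal the means of the arrays, and their columns of differences and p-values were not used. Each gene was tested in limma 3.58.1 (R 4.3.3; lmFit and eBayes, 3 NC against 3 siH19-2, two-sided) with Benjamini-Hochberg adjustment over 39261 of the 39334 probe sets, those with a gene symbol. The fit was run on simulated data with added differences larger than those of the kinetochore genes that passed. That run does not bear on their calls. With 3 arrays per group an exact permutation test cannot go below p = 0.1. The members and lists were chosen with earlier results of these data known. Values per array are given for ZW10, for genes with an adjusted p under 0.05 and for the gene of each role with the highest NC mean, and KNTC1 and CENPQ were added after their values were seen. From other lists, up to 4 genes that passed are named. BUB3P1 and the other pseudogenes, SGO1-AS1 and the genomic neighbours were also named after the values were seen. Signals of different genes do not compare RNA amounts. Promoters are from RefSeq (GRCh38.p14). The paper also describes siH19-1, for which the samples of this series hold no arrays.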

Additional observations from a re-analysis of the deposited data

How the results depend on the processing

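Under cyclic loess and under centring on the probe sets above the median signal, H19 and all 8 genes of the kinetochore group that passed kept their direction and their call. Loess moved the median over the 46 genes from -0.019 to -0.0368. It moved the median over all probe sets as well, from 0.0157 to -0.0019. With 1 array left out, the median over the 46 genes lay between -0.0282 and -0.0122. The number of the 45 genes other than ZW10 that passed below and above NC was 6 and 2. It was 11 and 7 both with probe sets above the median signal only (4058 of all probe sets passing) and with a variance prior with trend and robust estimation (3449). It was 13 and 10 at an unadjusted p under 0.05 (7963), 3 and 3 by the methods' t-test with Benjamini-Hochberg adjustment (2189, of which 39.7% lower against 49.9% in limma), and 0 and 0 under Bonferroni-Holm (43). With 1 array left out it was 0 to 3 lower and 0 to 1 higher, with 464 to 1078 of all probe sets passing against 2067. The genes that passed by the t-test were partly others than in limma. BUB3, BIRC5, SGO1 and SPC25 passed in both, ZWINT and MAD1L1 only by the t-test, and ZWILCH, CENPI, SKA2 and SKA3 only in limma. H19 stayed at -0.30 but did not pass under Bonferroni-Holm (adjusted p = 1), and lay between -0.32 and -0.28 with 1 array left out. CENPN, which did not pass, turned from -0.02 to 0.00036 without siH19-2 2 and lay between -0.0358 and 0.00036 with 1 array left out. Replicate numbers are shared by the groups, but arrays of the same number did not deviate together over all probe sets (correlations 0.0060, 0.0099 and 0.0052). This gives no sign of pairing. It cannot exclude that arrays of the same number were handled together, which the labels do not state. With the replicate number as a block, 74 probe sets passed, 0 lower and 0 higher of the 45 genes, and H19 (-0.30) had an adjusted p of 0.091. The number of arrays limits the precision.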

Other observations

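Outside the kinetochore, both E-type cyclins fell. CCNE1, which drives entry into S phase with CDK2, had a log2 signal of 9.01 ± 0.01 with NC and 8.55 ± 0.07 with siH19-2 (SD, n = 3) and fell by 0.46 (SE 0.04, limma adjusted p = 0.0057). CCNE2 fell by 0.33 (SE 0.04, adjusted p = 0.0087). The other 18 of the 20 G1/S markers did not pass, and the median over the 20 was 0.02. Of 10 p53 targets, BTG2, an antiproliferative gene, rose by 0.31 (adjusted p = 0.012), GADD45A fell by 0.29 (adjusted p = 0.0496), and the median was 0.05. Among the markers of PDAC lines, the keratin KRT19 fell by 0.40 (adjusted p = 0.032), with a median of -0.08 over the 9 markers. The shares that passed were 10% of the G1/S markers, 20% of the p53 targets and 11.1% of the PDAC markers. Of all probe sets 5.26% passed, and 11.9% within the signal range of the kinetochore genes. These short lists were not tested as sets.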
